A study of Bos taurus with 6 samples.

Results

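The genes described here carry signals from Toll-like and NOD-like receptors to the transcription factor NF-kappaB, or belong to the caspases, the proteases of inflammation and cell death. They were chosen by their annotated gene symbol alone, from the families TLR, NLR and NOD, MYD88 and the other TIR-domain adaptors, IRAK, TAB, TRAF, IKK, NF-kappaB and its inhibitors, TNFAIP and TNIP, RIPK, CARD and CASP. This gave 39 genes of 6337 with a single symbol on the array, measured by 52 of 12763 probe sets, and a gene with several probe sets was represented by the brightest. TLR4, LY96, TNFAIP3, NLRP3 and CASP8 are not analysed here. RNA of white blood cells from female Sanhe heifers was measured 3 times after severe cold (arrays 1, 2 and 3) and 3 times before it (arrays 4, 5 and 6). Cold exposure meant -32 °C in the open for 3 hours and then 15 hours of stabling at 5 °C, and the labels leave the moment of the later bleeding unstated. The animals shared a cowshed and a mixed ration, and the samples came from 3 animals, without a label that says which after-cold and before-cold samples share one. Values are log2 intensities unless stated otherwise.

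Toll-like receptors bind microbial molecules at the cell surface or in endosomes and recruit adaptor proteins such as MYD88, which gather IRAK kinases and the ubiquitin ligase TRAF6. This activates the IKK complex, which marks IkappaB inhibitors for destruction and so frees NF-kappaB to enter the nucleus, where it induces cytokine genes and also its own inhibitors. NOD-like receptors and PYCARD build inflammasomes, in which caspases mature inflammatory cytokines. Neutrophils and monocytes of the blood use these pathways as their main alarm system, and lymphocytes use the NF-kappaB part when their antigen receptors are engaged.

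The arrays hold leukocyte RNA: PTPRC, CD53, CORO1A, LCP1 and CD52, which mark white blood cells in general, had means of at least 10.2. Genes of other blood cells were also bright, with HBB of red cells at 11.7 to 12.2 and PF4 of platelets at 12.4 to 12.8. The part of such cells in the RNA was not tested. The array medians over all probe sets were 7.36, 7.49 and 7.25 after cold and 7.41, 7.36 and 7.44 before. Arrays 2 and 6 were close to each other although one is from after and the other from before cold. The median absolute difference between them over all probe sets was 0.11, whereas the other combinations of an after-cold with a before-cold array gave 0.20 to 0.82. Values without these 2 arrays are given for the members as a whole and for some single members.

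No member passed an adjusted p of 0.05 in the comparison of the after-cold with the before-cold arrays. In limma the adjusted p was 1.00 for each member, against 0 calls, or 0.0%, over all 12763 probe sets at that threshold. At an unadjusted p under 0.05 there were 0 members, where 0.537% of all genes lay under that value, and the smallest unadjusted p of a member was 0.121, for CASP4. Changes of the members ran from -0.71 to 0.34, with a median SE of 0.33. The size of the change was smaller than its SE in 35 of the 39. The 95% intervals show what this leaves possible: that of NFKBIA ran from -0.61 to 0.76 and that of CASP4 from -1.65 to 0.23.

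**Figure D1:**
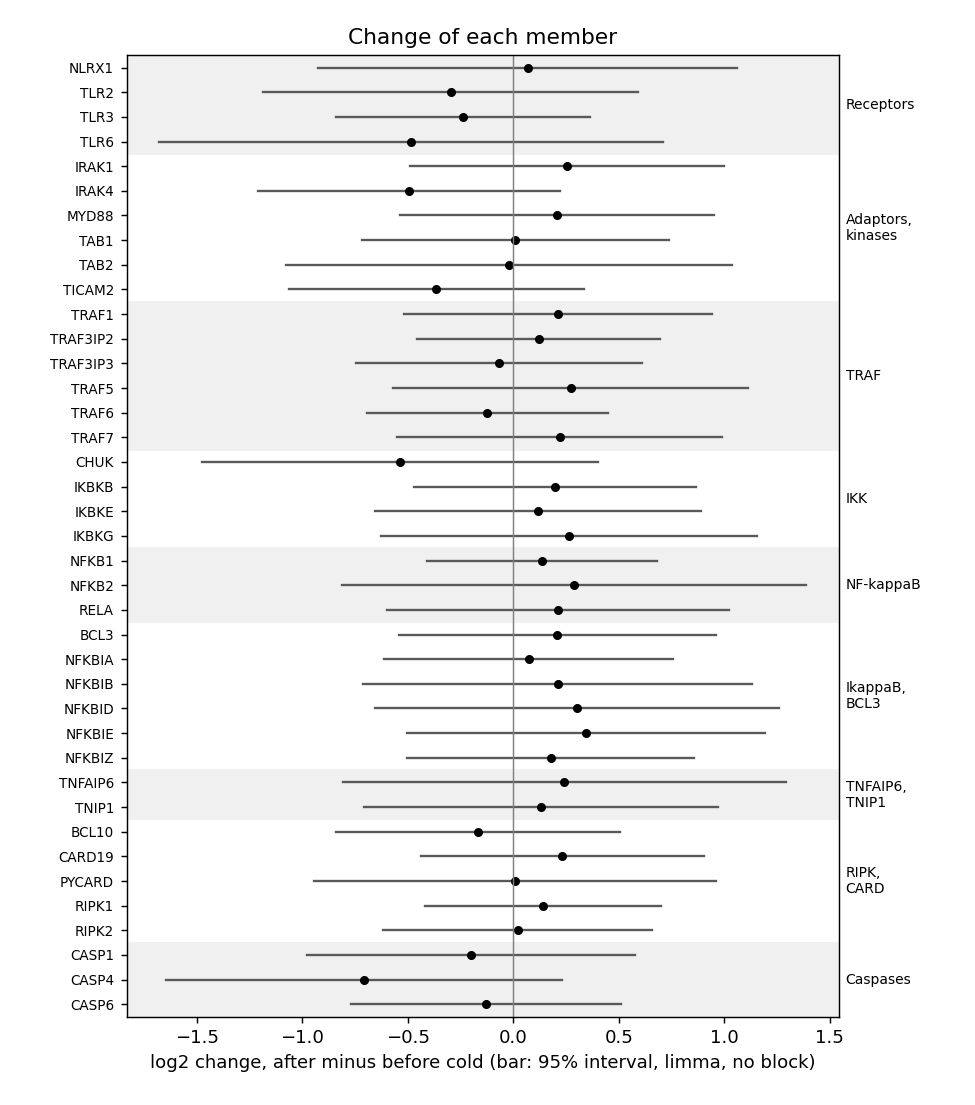
Log2 change of each of the 39 members, after minus before cold (horizontal axis, points), with its 95% interval from limma without a block (bars), grouped by role. Every bar crosses 0, and the points run from -0.71 for CASP4 to 0.34 for NFKBIE.

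The mean was higher after cold in 26 of the 39 members, or 66.7%, beside 56.3% of all genes. The median change of the members was 0.12, beside 0.05 for all genes. This balance rested on array 3: without it, 14 of 39 members had a higher mean and the median was -0.05, beside 49.7% of all genes. Without array 6, 19 of 39 were higher with a median of -0.03, beside 47.1% of all genes, so that the share over all genes moved down as well in both settings. Without arrays 2 and 6 together, 23 of 39 were higher and the median was 0.11, beside 55.9% and 0.06 for all genes. In 0 members did all after-cold arrays lie above all before-cold arrays, beside 2.02% of all genes. In 1 member, CASP4, all lay below, beside 3.0% of all genes.

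**Figure D2:**
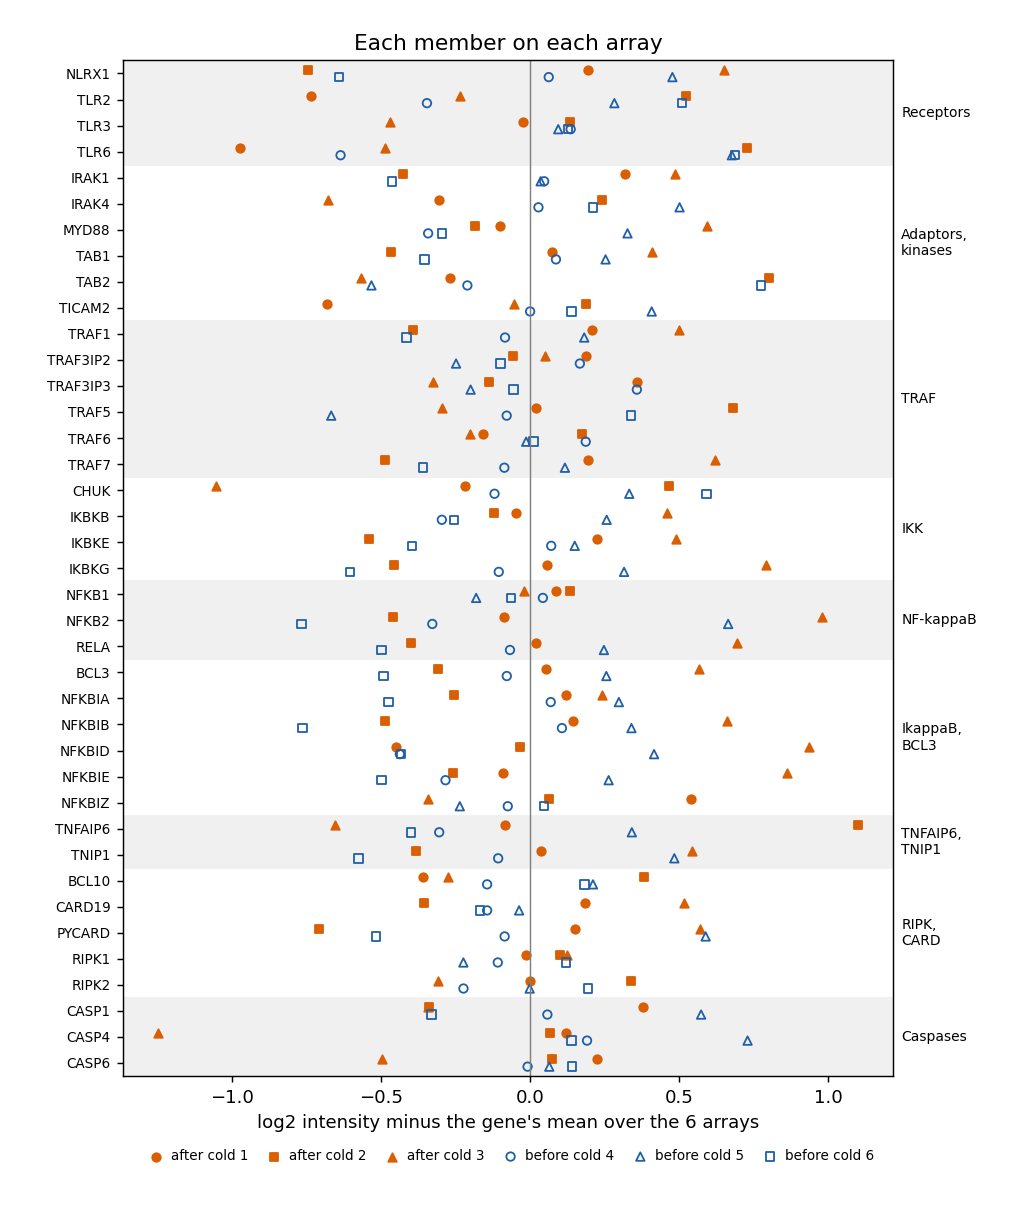
Log2 intensity of each member on each array minus that member's mean over the 6 arrays (horizontal axis), grouped by role. Filled orange symbols are after-cold and open blue symbols before-cold arrays, and circles, squares and triangles mark arrays 1 and 4, 2 and 6, and 3 and 5. Squares of both colours often lie together, and CASP4 is the only member whose orange and blue symbols do not overlap.

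Among the receptors, the 3 Toll-like receptor genes had lower means after cold and the NOD-like receptor gene a slightly higher one. TLR2, which recognises bacterial lipoproteins, was at 7.74, 8.998 and 8.24 after cold, against 8.13, 8.76 and 8.98 before. Its partner TLR6 was at 7.45, 9.15 and 7.94 after cold, against 7.78, 9.10 and 9.11 before. Both were low on arrays 1 and 4 and high on arrays 2 and 6, and the groups overlapped. TLR2 differed by -0.30 ± 0.39 (SE) and TLR6 by -0.49 ± 0.52. Leaving out single arrays moved TLR6 between -0.97 (array 2) and -0.12 (array 1). With array weights both turned positive, at 0.29 and 0.41. That setting gave array 1 nearly no weight (0.0019) and array 4 the most (30.7), against 1.20 to 3.62 for the others. Array 4 held the lowest before-cold value of both genes. Without array 1 alone, 0 of the 4 receptor genes had a higher mean. TLR3, the endosomal sensor of double-stranded RNA, was at 6.21, 6.37 and 5.76 after cold and held between 6.33 and 6.37 on the before-cold arrays. Its difference of -0.24 ± 0.26 was -0.06 without array 3. NLRX1, a mitochondrial NOD-like protein, differed by 0.07 ± 0.43, and by -0.24 without array 3.

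Markers of blood cell types were read beside the receptors. Of 6 measured monocyte markers 4 had a lower mean after cold, and their summed linear intensities were 4309 to 5589 after cold against 6117 to 8091 before. Most of each sum came from 1 gene, the protease CTSS, and the other 5 markers summed to 1175 to 1945 after cold against 1113 to 1982 before, which overlapped. CTSS and the scavenger receptor MSR1 were lower on all after-cold than on all before-cold arrays, while CD14 differed by 0.20 ± 0.32. Of 40 measured marker genes over all cell types, 3 were lower in this way, these and GZMB of NK cells, beside 3.0% of all genes, and 2 were higher, CXCR5 and POU2AF1 of B cells, beside 2.02% of all genes. All 5 measured neutrophil markers had a higher mean after cold, with summed intensities of 19041 to 25122 after cold against 16223 to 24747 before. T cell markers had a higher mean in 3 of 9 genes, B cell markers in 4 of 5, NK cell markers in 5 of 6, red cell genes in 2 of 2 and platelet genes in 0 of 2. No marker list had a member at an adjusted p under 0.05 in limma. The part of these markers in the receptor values was not tested, and in bulk blood fewer cells of a type cannot be told apart from less RNA per cell.

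The adaptors and receptor-proximal kinases were split, with 3 of 6 higher and a median of -0.01. IRAK4, the kinase that starts signalling from MYD88, was at 8.95, 9.49 and 8.57 after cold, against 9.28, 9.75 and 9.46 before. Arrays 1 and 3 lay below all before-cold arrays and array 2 among them. The difference was -0.49 ± 0.31 (SE), with a second IRAK4 probe set at -0.60 ± 0.31. Its substrate IRAK1 ran the other way, at 8.70, 7.96 and 8.86 after cold against 8.43, 8.42 and 7.92 before, a difference of 0.25 ± 0.32. Without array 3 the differences were -0.28 for IRAK4 and 0.07 for IRAK1, and without arrays 2 and 6 they were -0.76 and 0.36. MYD88 itself was at 9.67, 9.59 and 10.36 after cold and at 9.43, 10.10 and 9.48 before. This 0.21 ± 0.32 became -0.04 without array 3. TICAM2, the adaptor that links TLR4 to the interferon branch, differed by -0.37 ± 0.30, and array 1 held its lowest value, 6.77. TAB1 and TAB2, which couple TRAF6 to the kinase TAK1, differed by 0.01 ± 0.32 and -0.02 ± 0.46. TAB2 was at 9.72 on array 2 and 9.69 on array 6, and between 8.35 and 8.71 on the other 4.

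The TRAF family and the proteins named for binding it counted 4 of 6 genes with a higher mean, and their median was 0.17. TRAF6, the ubiquitin ligase of the Toll-like receptor pathway, was at 7.11, 7.44 and 7.06 after cold, against 7.45, 7.25 and 7.28 before, with a difference of -0.12 ± 0.25 (SE). TRAF1, itself a known NF-kappaB target, differed by 0.21 ± 0.32, TRAF7 by 0.22 ± 0.34 and TRAF5 by 0.27 ± 0.37. TRAF1 was at 0.013 and TRAF7 at -0.04 without array 3, and TRAF5 at -0.0021 without array 2. TRAF3IP2, the adaptor of interleukin 17 receptors, differed by 0.12 ± 0.25, or -0.10 with array weights. TRAF3IP3, a TRAF3-binding protein of lymphocytes, was at -0.07 ± 0.30 in its brightest probe set.

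In the IKK family the catalytic subunits pointed in opposite directions. CHUK, or IKKalpha, was at 8.47, 9.16 and 7.64 after cold, against 8.57, 9.02 and 9.28 before. Array 3 stood far below the other 5, and the difference was -0.54 ± 0.41 (SE), or -0.14 without array 3 and -0.90 without array 2. Without arrays 2 and 6 the difference was -0.74. IKBKB, or IKKbeta, was at 8.25, 8.18 and 8.76 after cold, against 8.004, 8.56 and 8.04 before, with a difference of 0.20 ± 0.29, or 0.015 without array 3. The regulatory subunit IKBKG differed by 0.26 ± 0.39 and the related kinase IKBKE by 0.12 ± 0.34. Without array 3 these were at -0.07 and -0.10, so that 1 of the 4 IKK genes, IKBKB, then had a higher mean. Whether CHUK and IKBKB differed from each other in their change was not tested.

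All 3 measured NF-kappaB subunit genes and all 6 measured genes of IkappaB proteins had higher means after cold, with medians of 0.21 in each group. None passed the test, and without array 3 the counts were 1 of 3 and 1 of 6. NFKB1, the precursor of p50, was the steadiest member over the 6 arrays, at 9.23, 9.27 and 9.12 after cold against 9.18, 8.96 and 9.07 before. Its difference was 0.13 ± 0.24 (SE). NFKB2, the precursor of p52, varied widely, at 6.62, 6.25 and 7.69 after cold against 6.38, 7.37 and 5.94 before. RELA, the activating subunit p65, was at 8.96, 8.54 and 9.64 after cold against 8.88, 9.19 and 8.45 before. Both were highest on array 3 and lowest on array 6. Their differences were 0.29 ± 0.48 and 0.21 ± 0.35, and they became -0.13 and -0.08 without array 3.

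NFKBIE, a classical IkappaB inhibitor, had the largest positive change of the members, 0.34 ± 0.37 (SE). It was at 8.64, 8.47 and 9.59 after cold against 8.45, 8.995 and 8.23 before, and its difference was -0.00042 without array 3. NFKBIA, the IkappaB whose gene NF-kappaB itself induces, was at 9.91, 9.54 and 10.03 after cold against 9.86, 10.09 and 9.31 before. The groups overlapped almost fully, and the difference of 0.07 ± 0.30 was -0.0032 without arrays 2 and 6. NFKBIB differed by 0.21 ± 0.40. Of the atypical, nuclear IkappaB proteins, BCL3 differed by 0.21 ± 0.33, NFKBID by 0.30 ± 0.42 and NFKBIZ by 0.18 ± 0.30. NFKBIZ was highest on array 1 at 7.89 and lowest on array 3 at 7.01, whereas NFKBID was lowest on array 1 at 6.81 and highest on array 3 at 8.20.

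**Figure D3:**
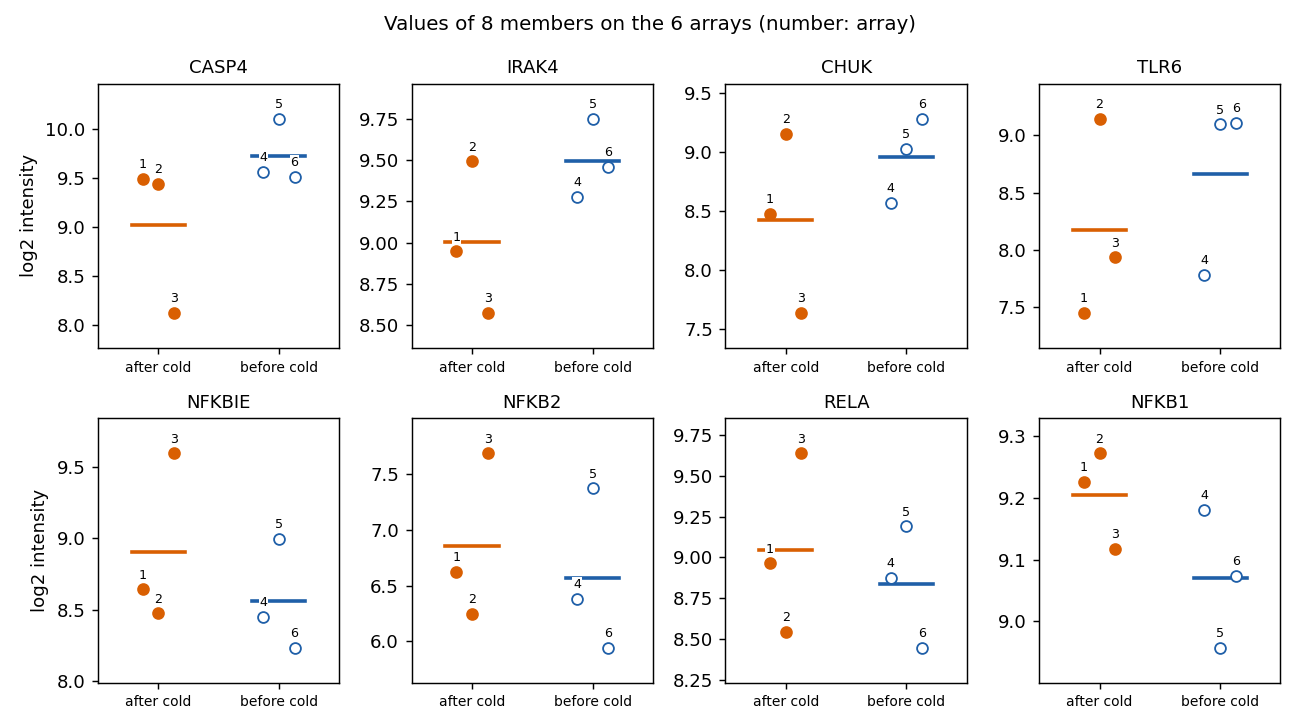
Log2 intensity of CASP4, IRAK4, CHUK, TLR6, NFKBIE, NFKB2, RELA and NFKB1 on each array (points, numbered by array), with the group mean as a horizontal line and after cold left of before cold in each panel. The vertical axes differ between panels. Array 3 is the lowest point for CASP4, IRAK4 and CHUK and the highest for NFKBIE, NFKB2 and RELA.

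Of the 2 feedback and effector genes outside these families, TNIP1, a ubiquitin-binding protein that restrains NF-kappaB signalling, differed by 0.13 ± 0.37 (SE). TNFAIP6, a secreted protein of inflamed tissue, was among the dimmest 2.25% of probe sets. It was at 3.78, 4.96 and 3.21 after cold against 3.56, 4.20 and 3.46 before, and its difference of 0.24 ± 0.46 became -0.25 without array 2.

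The RIPK and CARD-domain genes had 4 of 5 higher means, with a median of 0.02. RIPK1, a kinase at the tumour necrosis factor receptor, was at 9.29, 9.40 and 9.43 after cold against 9.20, 9.08 and 9.42 before, a difference of 0.14 ± 0.24 (SE). RIPK2, the kinase of NOD receptors, differed by 0.02 ± 0.28. BCL10, which joins antigen receptor signals to NF-kappaB, differed by -0.17 ± 0.29 and CARD19 by 0.23 ± 0.29, or 0.03 without array 3. PYCARD, the adaptor of inflammasomes, was at 9.66, 8.81 and 10.08 after cold against 9.43, 10.10 and 8.997 before. Its difference was 0.01 ± 0.41, and its values on arrays 3 and 5 were both over 10 while those on arrays 2 and 6 were lowest.

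The 3 measured caspase genes had lower means after cold, with a median of -0.20. CASP4, an inflammatory caspase that in humans binds bacterial lipopolysaccharide inside cells, was at 9.49, 9.44 and 8.12 after cold against 9.56, 10.10 and 9.51 before. Arrays 1 and 2 lay less than 0.1 below the nearest before-cold array, and array 3 lay far below. The difference was -0.71 ± 0.41 (SE), the most negative of the members, with a second probe set at -0.88 ± 0.42. Without array 3 it was -0.26 ± 0.29, and without arrays 2 and 6 it was -1.02. In limma its unadjusted p was 0.0365 with array weights and 0.0411 with the samples matched 1-5, 2-6 and 3-4, while its adjusted p there was 0.906 and 0.843. CASP1, which matures IL1B and lies next to CASP4 in the RefSeq annotation of the assembly ARS-UCD2.0, was at 10.18, 9.47 and 9.46 after cold against 9.86, 10.38 and 9.48 before. This -0.20 ± 0.34 turned to 0.04 without array 5. CASP6, an effector caspase of apoptosis, was at 9.87, 9.72 and 9.14 after cold and between 9.63 and 9.78 before. Its -0.13 ± 0.28 became 0.08 without array 3.

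Of the 39 members 9 had more than 1 probe set. The probe sets had the same sign for 8 of them, namely BCL10, CASP4, IRAK1, IRAK4, NFKBIE, TAB2, TLR3 and TNIP1. In TRAF3IP3 they disagreed, with the 2 brighter probe sets at -0.07 ± 0.30 (SE) and -0.13 ± 0.32 and the dimmest at 0.31 ± 0.43. The 3 probe sets of TLR3 ran from -0.24 to -0.51 and those of TNIP1 from 0.13 to 0.34. A second IRAK1 probe set, at 0.04 ± 0.66, varied by 2.63 over the 6 arrays, against 0.95 for the brighter one.

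Many members varied widely over the arrays, also between arrays of the same group. The range over the 6 arrays exceeded 1, a doubling, in 21 of 39 members, or 53.8%, beside 48.5% of all genes. Arrays 2 and 3, both from after cold, differed by over 1 in 14 members, or 35.9%, beside 33.5% of all genes. Counts for the other pairs of arrays within a group are not given. The widest range was that of CASP4, at 1.98, and the narrowest that of NFKB1, at 0.31. Arrays 2 and 6 were the lowest 2 of the 6 in 15 members, beside 36.9% of all genes. These included RELA, NFKB2, NFKBIA, NFKBIB, BCL3, IKBKG and IKBKE, and also IRAK1, PYCARD and NLRX1. They were the highest 2 in 6 members, beside 25.5% of all genes, namely TLR2, TLR6, TAB2, CHUK, RIPK2 and TRAF5. Array 3 alone held the highest value of 18 members and the lowest of 12.

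Probe sets of MHC genes, which vary in sequence between animals, gave one matching of the samples. Over 19 probe sets of BOLA genes the mean absolute difference was 0.15 between arrays 1 and 4, 0.11 between 2 and 6, and 0.32 between 3 and 5, and 1.08 to 3.13 in the other 6 combinations. The labels do not state this matching, and it was chosen after the array values were seen. For the members, the median absolute difference was 0.19, 0.13 and 0.35 in these 3 pairs. With it as a block the median SE of the members was 0.16, against 0.33 without a block. Over all genes it was 0.17 with this block and 0.32 without. In limma with this block the smallest unadjusted p of a member was 0.0734, for NFKBIE, with an adjusted p of 0.492.

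Within this matching, 14 of 39 members, or 35.9%, were higher after cold in all 3 pairs, beside 25.9% of all genes. They were NFKB1, NFKB2, RELA, NFKBIB, NFKBIE, BCL3, IKBKB, IKBKG, MYD88, IRAK1, TRAF1, TRAF3IP2, TRAF5 and TNIP1. All 3 subunit genes were among them: NFKB2 differed by 0.24, 0.31 and 0.31 in the pairs 1-4, 2-6 and 3-5, RELA by 0.09, 0.10 and 0.45, and NFKB1 by 0.04, 0.20 and 0.16. IKBKB was similarly even, at 0.25, 0.13 and 0.20, while NFKBIE ran from 0.19 in the pair 1-4 to 0.60 in 3-5. With the block, the 95% interval of NFKB2 was -0.07 to 0.64 and that of NFKBIE -0.04 to 0.73. Lower in all 3 pairs were 2 members, CASP4 and CHUK, beside 15.1% of all genes, and no share was tested. CASP4 differed by -0.07, -0.07 and -1.98 and CHUK by -0.10, -0.13 and -1.39, so that the size of both came from the pair 3-5. In the pair 3-5 there were also large negative differences of IRAK4 (-1.18), TLR6 (-1.16) and CASP1 (-0.92), which differed by 0.04 or less in size in the pair 2-6.

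**Figure D4:**
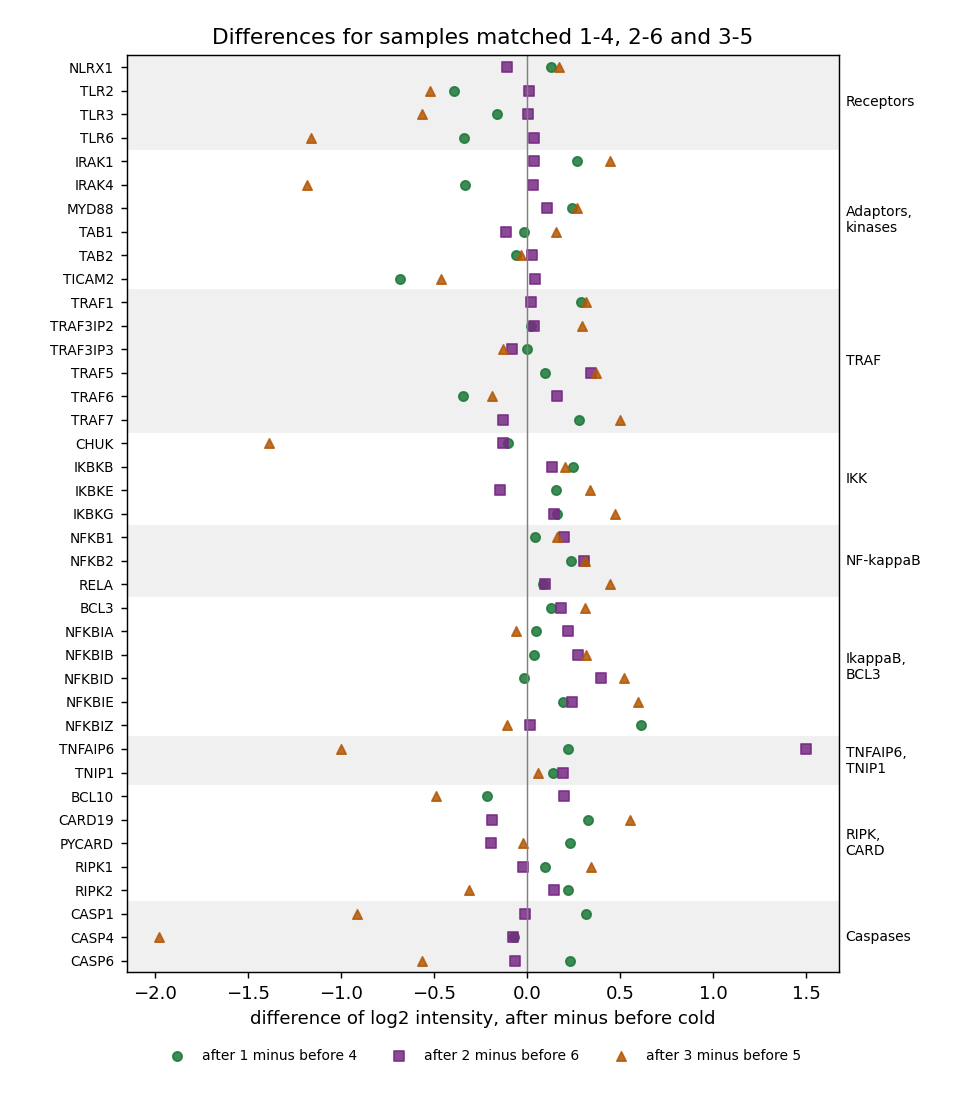
Difference of log2 intensity of each member, after minus before cold, for arrays 1 and 4 (circles), 2 and 6 (squares) and 3 and 5 (triangles), the matching in which MHC probe sets were most alike. Squares lie close to 0 for most members, and the triangles of CASP4, CHUK, IRAK4 and TLR6 lie below -1.

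Other genes of the pathway, and genes that NF-kappaB induces, also gave no call in limma at an adjusted p of 0.05. Of 43 further pathway genes 29 were measured, 18 with a higher and 11 with a lower mean after cold and a median of 0.09. Over all genes 56.3% had a higher mean, with a median of 0.05. The smallest unadjusted p belonged to CFLAR, an inhibitor of caspase activation by death receptors, at -0.78 ± 0.43 (SE). UBE2N, the ubiquitin-conjugating enzyme that works with TRAF6, was at 6.92 on array 3 and between 8.27 and 8.58 on the other 5. HTRA2, a mitochondrial protease released in apoptosis, was at 9.58, 9.31 and 9.27 after cold against 9.19, 8.97 and 9.04 before, a difference of 0.32 ± 0.24. It was the 1 gene of the 29 whose after-cold arrays all lay above the before-cold arrays, beside 2.02% of all genes. For 0 of the 29 all lay below, beside 3.0% of all genes. In the matching 1-4, 2-6 and 3-5, 10 of the 29 were higher in all 3 pairs, beside 25.9% of all genes, and 4 were lower in all, beside 15.1%. Of 32 NF-kappaB targets outside the members 22 were measured, 15 with a higher and 7 with a lower mean and a median of 0.18. The same 56.3% and 0.05 of all genes stand beside these. Values without array 3 are not given for the 2 lists, and neither share was tested. The cytokine gene IL1B was at 5.85, 7.41 and 5.69 after cold against 6.95, 7.65 and 6.83 before, with a difference of -0.83 ± 0.48. TNF and JUNB differed by 0.35 ± 0.33 and 0.36 ± 0.35. GADD45B, a stress-response gene, was at 8.18, 8.22 and 8.25 after cold against 8.02, 8.07 and 7.98 before (0.19 ± 0.23). Of the 22 targets it was the 1 whose after-cold arrays all lay above, beside 2.02% of all genes, and 0 lay below, beside 3.0%. In the same matching 9 of the 22 targets were higher in all 3 pairs and 0 lower in all, beside the same 25.9% and 15.1% of all genes.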

How the data were processed

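The authors deposited a linear intensity for each probe set and each of 6 arrays, and GCOS and RMA are named per the submitters' processing notes. For versions, genome build and filters, the sources used here give nothing. The number of arrays limits the precision, and no detection calls were used. Values were taken to log2 without further normalization, pseudocount or filter. Probe sets were named by the platform annotation (8125 with 1 symbol, 56 with several, 4582 with none), and all 39 members matched the RefSeq gene table with 0 symbols changed.

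All 12763 probe sets were compared between the groups (after minus before cold) by limma 3.58.1 under R 4.3.3, without a block, two-sided, with Benjamini-Hochberg adjustment over all of them. The p-values treat as separate 6 samples that came from 3 animals. An exact permutation test of 3 against 3 arrays cannot give a p below 0.1. Errors of a change are SE of this model. The labels give no batch. The limma fit without a block was tested on simulated data with independent noise on each array. The changes added there were larger than that of any member, and the block fits were not tested in this way.

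The members, gene lists and the rule for named genes were chosen with earlier results of these data known. The rule took fixed members, those with non-overlapping groups, the widest ranges and disagreeing probe sets, and the remaining members were named after their values were seen. Alternatives were filters on dim probe sets, an intensity trend, array weights, other normalizations, the mean of a gene's probe sets, leaving out arrays and each of 6 matchings as a block. The setting without arrays 2 and 6 and the marker sum without CTSS were chosen after seeing the data.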

Additional observations from a re-analysis of the deposited data

How the results depend on the processing

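No member and no probe set passed an adjusted p of 0.05 in limma in any setting run, nor did a member at 0.1. At an unadjusted p under 0.05 the 0 members became 1 with array weights (CASP4), 1 with the replicate block for the matching 1-5, 2-6 and 3-4 (CASP4), 1 without arrays 2 and 6 (IRAK4), and between 0 and 3 when single arrays were left out, the 3 being TLR6, CHUK and IRAK4 without array 2. Over all 12763 probe sets, the 63 under that value became 1168 with the replicate block for 1-4, 2-6 and 3-5. They became 662 with array weights and 1234 without arrays 2 and 6, each beside 1 of the 39 members. With single arrays left out they ran from 5 without array 3 to 1787 without array 2, the latter beside 3 of the 39 members. Centring on the median gave 109, quantile normalization 100, cyclic loess 102 and a filter 27 without the dimmest 50%. Among the other matchings there were 33 for 1-4, 2-5 and 3-6, 24 for 1-5, 2-4 and 3-6, and 656 for 1-5, 2-6 and 3-4. The median change of the members, 0.12 in the main fit, ran from -0.05 without array 3 to 0.19 without array 2. Each move was below 0.20, the pooled SD within groups of the members' median deviation on each array. That spread exceeds the median itself, so a turned sign also counted as no move. The intensity trend and the blocks cannot move this median. The estimate of array weights gave array 1 almost no weight (0.0019) and array 4 the most (30.7). No paired analysis was possible as the labels state it because they do not name the animals, so all matchings were run.

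The direction of a member was turned in 54 of 807 values from the alternatives, 0 of these with an adjusted p under 0.05. The 807 include the filters on dim probe sets, the intensity trend and the 6 matchings as a block. Those settings leave a member's difference of means unchanged and could not turn it, so the 54 came from the remaining alternatives. Over all alternatives, 12 members were never turned. Yet each of these 12 moved by over 1.5 times when some single array was left out, and 9 of them did so without array 3. Their ranges were -0.94 to -0.26 for CASP4, -0.90 to -0.14 for CHUK, -0.74 to -0.28 for IRAK4, -0.55 to -0.12 for TICAM2, -0.37 to -0.064 for TLR3 and -0.24 to -0.054 for TRAF6. They were 0.031 to 0.47 for CARD19, 0.015 to 0.37 for IKBKB, 0.074 to 0.53 for IRAK1, 0.078 to 0.19 for NFKB1, 0.064 to 0.24 for RIPK1 and 0.013 to 0.46 for TRAF1. With array weights the values were 0.069 for BCL10, -0.011 for NFKBIA, -0.10 for NFKBIZ and for TRAF3IP2, -0.0084 for TAB1, 0.15 for TAB2, 0.29 for TLR2 and 0.41 for TLR6. TAB2 was at 0.013 after median centring, 0.0054 after quantile and 0.0095 after cyclic loess normalization, and TRAF3IP3 at 0.036 with the mean of its probe sets. Without arrays 2 and 6, NFKBIA was at -0.0032, RIPK2 at -0.043 and TNFAIP6 at -0.39. With single arrays left out, BCL3 ran from -0.023 to 0.41, CASP1 from -0.44 to 0.036, CASP6 from -0.28 to 0.085, IKBKE from -0.099 to 0.415, IKBKG from -0.068 to 0.56 and MYD88 from -0.039 to 0.42. NFKB2 ran from -0.13 to 0.69, RELA from -0.083 to 0.46, NFKBIA from -0.15 to 0.24, NFKBIB from -0.12 to 0.51, NFKBID from -0.091 to 0.60, NFKBIE from -0.00042 to 0.56 and NFKBIZ from -0.051 to 0.39. NLRX1 ran from -0.24 to 0.46, PYCARD from -0.27 to 0.36, RIPK2 from -0.15 to 0.18, TAB1 from -0.19 to 0.24 and TAB2 from -0.43 to 0.36. TNFAIP6 ran from -0.25 to 0.63, TNIP1 from -0.12 to 0.41, TRAF3IP3 from -0.27 to 0.093, TRAF5 from -0.0021 to 0.51 and TRAF7 from -0.037 to 0.52. The cause was not tested, and what dim signal limits was not tested either, since no measure of background was used.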
